A study of Sus scrofa with 8 samples.

Results

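Iron handling genes were examined in testes of 8 Large White boars, by the probes of ferroportin (SLC40A1), hepcidin (HAMP), the ferritin chains FTH1 and FTL, transferrin (TF), the transferrin receptor TFRC, the transporter SLC11A1 and haem oxygenase HMOX1. Of these 8 genes, 7 had a named probe, and FTL had none. Together they were measured by 17 of the 43603 probes on the array. SLC40A1 was chosen by its difference between the diets, and both of its probes were selected on that contrast, since their name comes from the study's list of probes that differed between the diets. The diet difference of SLC40A1 is therefore given as a description, without a test. The other genes were chosen by function, but with earlier results of these data known. In addition, 2 of the 10 FTH1 probes, A_72_P213758 and A_72_P223812, are on that list.

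The boars m_9597, m_9599, m_9499 and m_9527 had been fed a diet with additional methionine, choline, betaine, vitamin B6, vitamin B12 and folate, and m_9598, m_9600, m_9502 and m_9528 a standard diet (control). Signals of single boars are listed in this order throughout. Both diets were given from 1 to 10 months of age. The boars m_9597 to m_9600 were full brothers of one litter, 2 on each diet. The 8 boars came from 3 litters in all, and diets were allotted at random within litters, but the litter of each boar beside the brothers is not given. The other boars are therefore compared with the brothers as a group (the others), which is not a litter. With a single litter on one side, this comparison cannot test litters, and its P-values measure the spread between boars only. RNA of each testis was labelled with Cy3 and hybridized to 1 array, so that P-values measure the spread between boars. The question was whether the diet affects gene expression in the testis. Values are log2 signals, quantile-normalized between arrays, and differences are the supplemented minus the control diet. Precision is limited by the number of arrays, 4 per diet.

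Ferroportin is the known exporter of iron from cells, and hepcidin, a peptide hormone made mainly by the liver, binds ferroportin and leads to its degradation. Ferritin stores iron inside cells, transferrin carries it in the blood and is taken up through the transferrin receptor, and haem oxygenase releases it from haem. In the testis, iron is needed by dividing germ cells and by the haem enzymes of steroid synthesis, and macrophages recycle it.

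The samples carried the marks of testis. The protamine genes PRM1 and PRM2 of spermatids had signals between 18.42 and 18.80 and between 18.11 and 18.56, the acrosin gene ACR between 16.82 and 17.03, and INSL3 of Leydig cells between 18.50 and 18.74. All of these were well above background on the 8 arrays. The median spot intensity of an array lay between 108 (boar m_9527) and 192.5 (boar m_9598), and 76.3% to 86.5% of spots were well above background. In the supplemented group the median of this share was 76.8%, and in the control group 82.6%. One slide held the arrays of the brothers and another slide the rest, so this litter and its slide cannot be told apart. On each slide the diets took the same places, so place and diet cannot be told apart either.

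All 17 probes passed the filter on dim probes. Of these, 16 were well above background on all 8 arrays, and TFRC was so on 3 of 4 arrays of each diet. The filter thus removed no member.

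SLC40A1 showed the largest diet differences among the 17 probes. For the probe A_72_P394233, the signals on the supplemented diet were 10.44, 10.54, 9.98 and 9.94, and those on the control diet were 10.75, 11.39, 11.13 and 11.83. For the probe A_72_P405348 they were 8.87, 8.86, 8.41 and 7.93 on the supplemented diet, and 9.69, 10.09, 9.20 and 11.03 on the control diet. With both probes each supplemented boar was below each control boar. Boar m_9527 had the lowest and boar m_9528 the highest signal, and the control boars lay further apart than the supplemented boars.

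The means of A_72_P394233 were 10.23 ± 0.31 (SD, n = 4) in supplemented boars and 11.28 ± 0.46 (SD, n = 4) in control boars. The difference was -1.05 (SE 0.25), which is a 2.07-fold lower signal on the supplemented diet. With A_72_P405348 the means were 8.52 ± 0.45 and 10.003 ± 0.77 (SD, n = 4 each), with a difference of -1.49 (SE 0.37), or 2.80-fold lower. Of all 36982 present probes, 418 or 1.13% had no overlap between the diets, and 689 or 1.86% had an unadjusted P-value under 0.05. Since the contrast chose SLC40A1, nothing is read from these shares for its probes.

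No present probe passed an adjusted P-value of 0.05 between the diets with limma, which is 0.0% of those tested. The smallest adjusted P-value of any probe was 0.476. The ordinary equal-variance test also called no probe after adjustment, and it gave 717 probes under an unadjusted 0.05. Without boar m_9502 limma called 1 probe and 6155 were under an unadjusted 0.05, and within the brothers alone it called 3.

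The study's list took probes under a P-value of 0.05 between the diets, by a test that its methods do not name. Recomputed here as a description with the ordinary equal-variance test, the members just inside this threshold were the FTH1 probes A_72_P213758 and A_72_P223812, at 0.0371 and 0.0249. Just outside were the FTH1 probes A_72_P265022 and A_72_P388104, at 0.113 and 0.132. The unadjusted limma P-values of A_72_P213758 and A_72_P223812, also a description, were 0.338 and 0.0705, both outside this threshold.

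**Figure D1:**
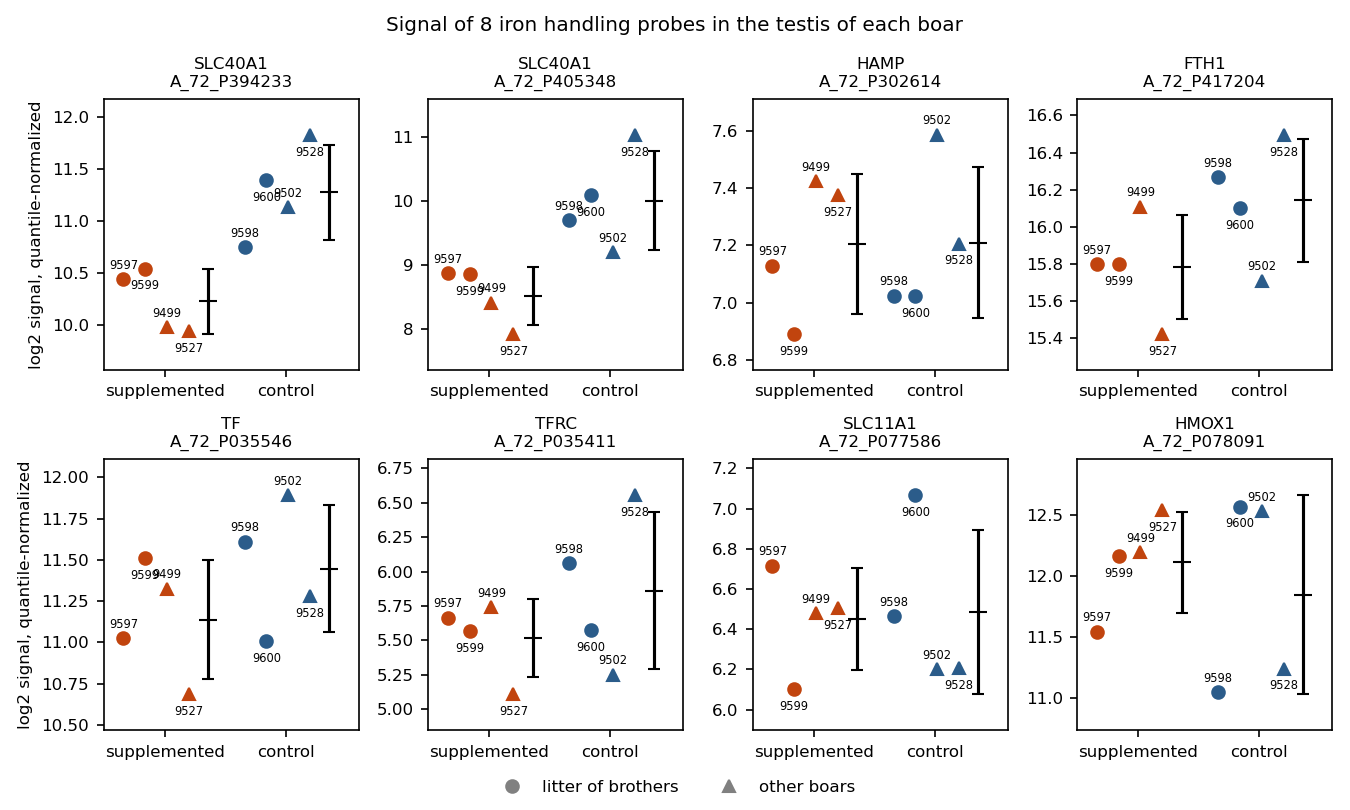
Signal (log2, quantile-normalized) of 8 iron handling probes in each boar, with circles for the litter of brothers and triangles for the other boars; bars give the mean and SD of the 4 boars of a diet. The supplemented boars lay below the control boars with both SLC40A1 probes, whose contrast chose them, and the diets overlapped with the 6 other probes.

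The SLC40A1 difference was negative on both slides, as it must be where no supplemented boar reaches a control boar. Within the litter of brothers it was -0.58 with A_72_P394233 and -1.03 with A_72_P405348, and within the other boars -1.52 and -1.94. The brothers' difference minus that of the others was 0.95 (SE 0.44) for A_72_P394233 and 0.92 (SE 0.76) for A_72_P405348. The list that chose the gene favours probes with little spread within a diet, and this spread includes the differences between the brothers and the others. Both are therefore given for SLC40A1 without a test.

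Over all present probes, 738 or 2.0% were under an unadjusted 0.05 for this interaction with limma and 1063 with the ordinary test, and none was called by either after adjustment. The count depended on single boars. It was 5830 without boar m_9502, 1520 without m_9528, 1204 without m_9499, 400 without m_9600, 387 without m_9597 and 360 without m_9599. In these fits the lone boar left of a litter group and diet is assumed to vary like the rest.

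The SLC40A1 signal itself had similar means in the brothers and the others. The brothers had a mean of 10.78 and the other boars of 10.72 with A_72_P394233, and the brothers minus the others gave 0.06 (SE 0.26). With A_72_P405348 the means were 9.38 and 9.14, and the difference was 0.23 (SE 0.39). Of all present probes, 2999 or 8.11% were under an unadjusted P-value of 0.05 between the brothers and the others, and 2287 or 6.18% had no overlap between them. The count under 0.05 also depended on single boars, with 9519 without boar m_9528, 1963 without m_9598, 1906 without m_9597 and 1557 without m_9599, and with array weights it was 7540. None passed after adjustment with limma, nor with the ordinary test, which gave 3318 under an unadjusted 0.05. Without boar m_9528 limma called 9 probes in this comparison, without boar m_9598 2 and without boar m_9499 1.

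Both SLC40A1 probes are 60-mers designed on the same expressed sequence tag, and the name comes from the study's annotation alone. They share that source and are not independent measures of the gene. The signal of A_72_P394233 minus that of A_72_P405348 ranged from 0.80 in boar m_9528 to 2.01 in boar m_9527, so the second probe spread the boars further apart. The first 30 bases of each probe are shown, since the name rests on this sequence, with the letters of the stop codons TAA, TAG and TGA in capitals.
A_72_P394233: tgTAAttTAAcccatacggctatcctTAAt
A_72_P405348: cgTGAaagggtggcTAGtcacgTGAatTAA
Each whole probe held at least 1 such triplet in all 3 forward frames, as did 125 of the 480 sequences on the study's list (26.0%). GC content was 35.0% and 38.3%.

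HAMP, the hormone that acts on ferroportin, had no such pattern. Its signals were 7.13, 6.89, 7.42 and 7.37 on the supplemented diet, and 7.02, 7.02, 7.59 and 7.21 on the control diet. The diets overlapped throughout, while each of the 4 brothers was below each of the other boars. The diet difference was -0.01 (SE 0.19, 95% interval -0.42 to 0.41, limma adjusted P-value 0.995), and its sign changed under 6 of the other processing settings.

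The brothers minus the other boars gave -0.38 for HAMP, with means of 7.02 and 7.40. With limma the adjusted P-value over all present probes was 0.590, so the difference did not pass. The brothers are a single litter on a single slide, so no difference between litters or slides is tested by it. A share of 6.18% of all present probes separated the brothers from the others, and the brothers shared a slide. HAMP is 1 of 5 genes with probes on the list of liver genes. Of its 6 present probes 3 were lower and 3 higher on the supplemented diet, and this balance depended on single boars, with 1 to 5 lower when a boar was left out (1 without m_9598 or m_9527, 5 without m_9600). Between the brothers and the others, APOA1 (0.37, limma adjusted P-value 0.591) and the ALB probe A_72_P165481 (0.38, limma adjusted P-value 0.608) also had no overlap, but with the brothers higher, opposite to HAMP. APOA1 had the brightest probe of the list, the TTR probe was not present, and summed signals were 33628, 31141, 25156 and 25945 on the supplemented diet, and 36776, 27956, 25492 and 27036 on the control diet.

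The heavy chain of ferritin, FTH1, which oxidizes iron for storage, was measured by 10 probes. Their means were all lower on the supplemented diet, by values from -0.36 to -0.05 with a median of -0.15. Scaled to the 75th percentile the median was smaller, -0.06 with the background-subtracted signal and -0.05 with gMedianSignal, and 2 of the 10, A_72_P007652 and A_72_P097108, were higher with either. Over all present probes the median difference was -0.003, and 50.5% had a lower mean on the supplemented diet. The probes measure one transcript in the same boars and are not replicates of the diet. The brightest FTH1 probes lay near the top of the signal scale, where quantile normalization gives boars shared values. With A_72_P213758, boars m_9597 and m_9599 both had 18.43, and boars m_9598 and m_9502 both had 18.64. Small differences and SDs of such probes are thus steps of rank.

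A_72_P417204 had the largest FTH1 difference. Its signals were 15.80, 15.80, 16.11 and 15.42 on the supplemented diet, and 16.27, 16.10, 15.71 and 16.50 on the control diet. The diets overlapped, with the supplemented boar m_9499 above the control boars m_9502 and m_9600. The difference was -0.36 (SE 0.21, 95% interval -0.83 to 0.11, limma adjusted P-value 0.840).

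Of the FTH1 probes, A_72_P223812 alone separated the diets, with 17.66, 17.60, 17.72 and 17.53 on the supplemented diet, and 17.99, 17.76, 17.79 and 18.13 on the control diet. The lowest control boar, m_9600, was only just above the highest supplemented boar, m_9499. Its difference was -0.29 (SE 0.14). It was on the study's list, so its P-values are given above as a description only. The second FTH1 probe of that list, A_72_P213758, had -0.13 (SE 0.12).

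Among the 8 FTH1 probes that were not on the study's list, limma adjusted P-values over all present probes lay between 0.840 and 0.926. Boar m_9527 had the lowest signal with all 10 FTH1 probes, as with both SLC40A1 probes. Boar m_9528 had the highest with 6 of them, boar m_9499 with 2 and boar m_9598 with 2, in one of which boar m_9502 was level with it. Without boar m_9527 the median of the FTH1 differences was -0.09, in place of -0.15, and 9 of the 10 were lower on the supplemented diet. The array of boar m_9527 was the dimmest of the 8 before normalization, and the part of this in the differences was not tested further than by taking the array brightness as covariate, a setting chosen after seeing the data. It gave a median of -0.12 for FTH1 and differences of -1.03 and -1.33 for the SLC40A1 probes A_72_P394233 and A_72_P405348.

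The 2 FTH1 probes of the study's list overlap in sequence and are not independent of each other. The last 30 bases of A_72_P213758 and the first 30 of A_72_P223812 are shown with the 16 shared bases in capitals.
A_72_P213758: ttctataagtcctaCCAGAACATCTACTTC
A_72_P223812: CCAGAACATCTACTTCagttctttccttag
A_72_P223812 extends past the overlap to an AATAAA, the usual signal for polyadenylation, which begins at its base 46.

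Transferrin carries iron in the blood, and Sertoli cells are known to make it for germ cells. The TF probe A_72_P035546 gave 11.02, 11.51, 11.33 and 10.69 on the supplemented diet, and 11.61, 11.01, 11.89 and 11.28 on the control diet. The diets overlapped, with boar m_9527 lowest and boar m_9502 highest. The difference was -0.31 (SE 0.24, 95% interval -0.85 to 0.23, limma adjusted P-value 0.840). It was -0.04 within the brothers and -0.58 within the other boars. The pig gene table holds 2 genes of the symbol TF, and the one matched by this probe is also listed as PICA, an inhibitor of carbonic anhydrase related to transferrin. Its identity as transferrin is therefore uncertain.

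TFRC, the receptor that takes transferrin into cells, had a dim probe. Its signals were 5.66, 5.57, 5.74 and 5.11 on the supplemented diet, and 6.06, 5.57, 5.25 and 6.56 on the control diet. Boar m_9527 was lowest and boar m_9528 highest, as with SLC40A1, but the diets overlapped. The difference was -0.34 (SE 0.28, 95% interval -0.97 to 0.29, limma adjusted P-value 0.840), and it was -0.11 without boar m_9528.

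SLC11A1, which moves iron out of the phagosomes of macrophages, gave 6.72, 6.10, 6.48 and 6.50 on the supplemented diet, and 6.46, 7.07, 6.20 and 6.21 on the control diet. Boar m_9600 was highest and boar m_9599 lowest, and the diets overlapped. The difference was -0.03 (SE 0.22, 95% interval -0.54 to 0.47, limma adjusted P-value 0.973). It was -0.36 within the brothers and 0.29 within the other boars, with a limma adjusted P-value of 1 for the interaction.

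HMOX1, the enzyme that opens the haem ring and releases its iron, had a higher mean on the supplemented diet. The signals were 11.54, 12.16, 12.19 and 12.53 on the supplemented diet, and 11.05, 12.57, 12.53 and 11.24 on the control diet. The control boars formed a low pair and a high pair, and the high pair was level with the highest supplemented boar. The difference was 0.26 (SE 0.38, 95% interval -0.59 to 1.12, limma adjusted P-value 0.869), and it was -0.003 without boar m_9598. The HMOX1 probe has 5 spots on each array, and the SD between spots lay between 0.05 and 0.33, against 0.61 between the 8 boars.

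**Figure D2:**
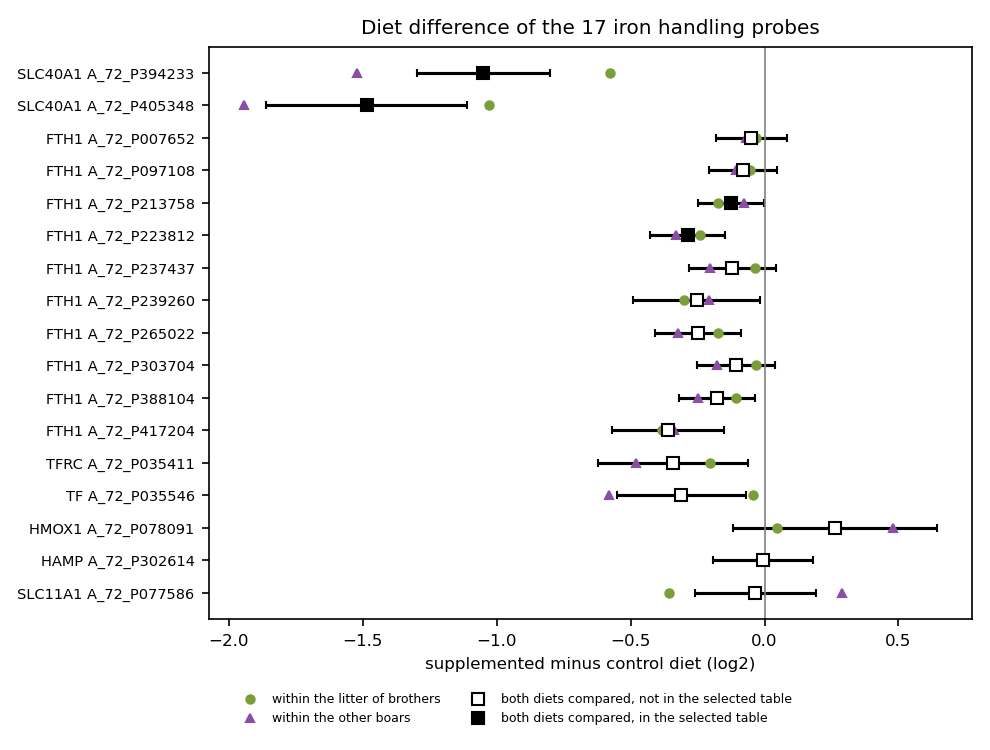
Difference between the diets (supplemented minus control, log2) of the 17 iron handling probes; squares and bars give the difference over all 8 boars with its standard error, filled where the probe was on the study's list, and circles and triangles give it within the brothers and within the other boars. The SLC40A1 probes lie at -1.05 and -1.49, and the others between -0.36 and 0.26.

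In all, 16 of the 17 probes had a lower mean on the supplemented diet, beside 50.5% of all present probes. All 10 FTH1 probes, which measure one transcript, are among these 16. The count was 14 with the background-subtracted signal and 13 with gMedianSignal, both scaled to the 75th percentile. Leaving out a boar gave 14 (without m_9599) to 17 (without m_9598). Of the 13 probes that were not on the study's list, HAMP alone was under an unadjusted P-value of 0.05 between the brothers and the others, beside 8.11% of all present probes, and none was under 0.05 for the interaction, beside 2.0% of all present probes. How many of the 13 were under 0.05 between the diets is not counted, since the list had taken out the probes that differed.

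The wider iron pathways were followed with lists of 118 genes, of which 31 had a probe. All 59 of their probes were present, and no one passed the adjusted P-value with limma. Unadjusted, 10 were under 0.05, 9 lower and 1 higher on the supplemented diet, beside 1.86% of all present probes, of which 50.4% were higher. These 10 were all among the 14 probes named on the study's list, which had been picked on this contrast. The count of 10 is thus no independent evidence of a direction, and neither is the lack of such probes among the 45 that were not on the list, since the list took them out. The median difference was -0.60 for the 14 probes and -0.10 for the 45.

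The control of hepcidin transcription runs through bone morphogenetic protein receptors and SMAD proteins, and this list held 4 of the 10 probes, all lower on the supplemented diet, of 14 present. SMAD9, a receptor-activated SMAD, was lower with its 3 probes A_72_P383658, A_72_P337238 and A_72_P428914, by differences of -1.10 (SE 0.27), -0.97 (SE 0.30) and -0.64 (SE 0.21). With A_72_P383658 the signals were 10.14, 10.16, 9.44 and 10.18 on the supplemented diet, and 11.24, 10.69, 10.66 and 11.71 on the control diet. The diets did not overlap with any of the 3 SMAD9 probes, and all 3 were on the study's list.

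SMAD1, of the same class, had a difference of -0.38 (SE 0.15) with the listed probe A_72_P025571. Its brighter probe A_72_P223337, which was not on the list, had -0.32 (SE 0.23, limma adjusted P-value 0.840). Its signals were 11.60, 11.61, 11.28 and 10.80 on the supplemented diet and 11.86, 11.59, 11.23 and 11.90 on the control diet, which overlap.

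Beside SLC40A1 and HAMP, the list of iron export held PROM2, a membrane protein known for carrying ferritin out of cells, which was higher on the supplemented diet by 0.49 (SE 0.18) with the listed probe A_72_P247652. The diets overlapped, since boar m_9599 at 7.32 was below the control boar m_9600 at 7.33. It was not under 0.05 with the background-subtracted signal, where 8 iron probes were, all lower, nor without boar m_9502, where 14 were, all lower. None of the 7 probes for iron uptake was under 0.05, and the brightest was TF.

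NFE2L2, a transcription factor that activates HMOX1 and the ferritin genes, had a difference of -0.55 (SE 0.20) with A_72_P229977 and of 0.15 (SE 0.12) with A_72_P273469. Both probes were on the study's list and disagreed in direction. However, A_72_P273469 was dim, with signals between 5.67 and 5.95, against 8.51 to 9.63 with A_72_P229977. Little is therefore read from its small difference. With limma A_72_P229977 alone of the 13 present probes for haem uptake, export and breakdown was under 0.05. The ordinary equal-variance test put both NFE2L2 probes under 0.05. The brightest of that list was KEAP1, which holds NFE2L2 in the cytoplasm, with 0.15 (SE 0.14, limma adjusted P-value 0.840).

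SFXN1, a carrier of the mitochondrial inner membrane, had -0.75 (SE 0.23) with A_72_P386638 and -0.74 (SE 0.26) with A_72_P131516, both on the study's list. The third SFXN1 probe, A_72_P035461, was not on it and had -0.05 (SE 0.23, limma adjusted P-value 0.963). It was much dimmer, with signals between 6.84 and 7.80, against 11.71 to 13.22 with A_72_P386638. The listed SFXN1 probes were 2 of 5 on the list for mitochondrial iron, and with limma no other of these was under 0.05. Whether SFXN1 has a part in iron handling was not tested. FDX1, the ferredoxin that hands electrons to steroid-making enzymes, was the brightest there with -0.25 (SE 0.28, limma adjusted P-value 0.845).

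None of the 3 probes for iron sensors and none of the 3 for haem synthesis was under 0.05. HIF1A, the oxygen-regulated transcription factor, had the brightest probe of the former and a difference of -0.82 (SE 0.56, limma adjusted P-value 0.840). PGRMC1, a haem-binding membrane protein, had the brightest of the latter, with -0.10 (SE 0.27, limma adjusted P-value 0.929) for A_72_P077936. Its dimmer probe A_72_P037486 had -0.64 (SE 0.55, limma adjusted P-value 0.840).

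Macrophages express SLC40A1 and SLC11A1, and in these bulk samples fewer cells of a type and less RNA per cell cannot be told apart. Of 16 macrophage genes listed, 8 had a probe, and 11 of 12 probes were present, 1 CD14 probe not being so. Summed signals of the list were 2738, 2696, 3220 and 4704 on the supplemented diet, and 2396, 4872, 2289 and 1964 on the control diet. AIF1 had the brightest probe. The sum was highest in the control boar m_9600 and the supplemented boar m_9527. Boar m_9527 had the lowest SLC40A1 signals, while those of boar m_9600, 11.39 and 10.09, were exceeded only by boar m_9528.

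Of the 11 macrophage probes, 8 had a higher mean on the supplemented diet, the side on which SLC40A1 was lower, also with both scalings to the 75th percentile. This direction was not shared by the brothers. Within the brothers alone 9 of the 11 had a lower mean on the supplemented diet, with a median difference of -0.17, and within the others 9 were higher, with a median of 0.41. Without boar m_9527, 6 of the 11 were higher. The haemoglobin receptor CD163, with 3 probes, had differences of 0.20, 0.24 and 0.45. Only SPI1, with -0.68 (SE 0.28), was under an unadjusted limma P-value of 0.05, beside 1.86% of all present probes. It did not pass after adjustment (limma adjusted P-value 0.840), and its ordinary equal-variance test gave an unadjusted P-value of 0.0756. The part of macrophages in the SLC40A1 difference was not tested.

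Leydig cells make steroids with haem enzymes. Of 14 present Leydig probes for 8 of 11 genes, 13 had a lower mean on the supplemented diet, against 12 with either scaling to the 75th percentile. The RLN1 probe was on the study's list. Its signals were 7.87, 8.29, 8.23 and 7.23 on the supplemented diet, and 9.98, 10.45, 10.77 and 12.05 on the control diet, without overlap, and boar m_9527 was lowest and boar m_9528 highest, as with SLC40A1. Its difference was -2.90 (SE 0.42), the largest among the present marker and iron probes, and no test is given. Without boar m_9527 only 9 of the 14 were lower, and the median difference of -0.25 became -0.06, while it became -0.73 without boar m_9499. The brightest was INSL3, and summed signals were 449874, 448989, 547498 and 397984 on the supplemented diet, and 431977, 480932, 459671 and 499437 on the control diet. The supplemented boars m_9499 and m_9527 were the highest and the lowest, while both were low for SLC40A1. The part of Leydig cells in the SLC40A1 difference was not tested.

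In the marker lists that follow, limma put no probe under an unadjusted 0.05 between the diets, beside 1.86% of all present probes. The ordinary equal-variance test put 1 Sertoli probe and the present CFTR probe under 0.05, both from the study's list. Present probes were 13 for Sertoli cells, 4 for spermatogonia, 2 for spermatocytes, 8 for spermatids, 7 for peritubular cells, 5 for endothelium and 6 for duct epithelium. Their directions are not counted, since in each list the count changed when a boar was left out. In the list of duct epithelium, the 3 EPCAM probes A_72_P124201, A_72_P146646 and A_72_P420519 had -0.95 (SE 0.59), -1.19 (SE 0.62) and -1.15 (SE 0.63), each with a limma adjusted P-value of 0.840. These are of the size of the SLC40A1 differences, but boar m_9597 was lowest and boar m_9598 highest with each of them, and the diets overlapped. The other duct markers had smaller differences or the opposite sign, with -0.18 and -0.15 for the CDH1 probes and 0.37 for the present CFTR probe, which was on the study's list. The CDH1 probe with -0.15 was well above background on 0 of 4 supplemented and 2 of 4 control arrays. Nothing is therefore read from its small difference. The part of duct cells in the SLC40A1 difference was not tested. Red blood cells, the main store of haem iron, were represented by HBE1 alone, an embryonic globin, with a difference of 0.10 (SE 0.16, limma adjusted P-value 0.881), whose sign changed with the background-subtracted signal and without boar m_9499.

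The profile of SLC40A1 over the 8 boars was compared with 2916 named present probes of 2122 genes, each centred on its own mean, by the root mean square distance to the mean of the SLC40A1 probes. The nearest genes were PCOLCE2 (0.27), RAB27B (0.28), TXNIP (0.29), LGALSL (0.31) and SMAD9 (0.31, with A_72_P337238), against a median of 0.77 over all these probes. The SLC40A1 probes were 0.39 apart from each other. Of these 5 genes, 4 were named by the study's list, which favours probes that differ between the diets, and TXNIP was named by its accession.

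PCOLCE2, an enhancer of procollagen processing, had 8.28, 7.98, 7.93 and 8.08 on the supplemented diet, and 8.73, 9.20, 8.92 and 9.68 on the control diet. RAB27B, a small GTPase of vesicle transport, had 5.75, 5.67, 5.65 and 5.77 against 7.24 and 7.56 in the control boars m_9600 and m_9528, and 6.67 and 6.20 in the control boars m_9598 and m_9502. Both had their highest signal in boar m_9528 and no overlap between the diets, as SLC40A1 did. The RAB27B signals on the supplemented diet were at the level of the dim TFRC probe, and so are limited by their signal over background.

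TXNIP, which binds thioredoxin, had 12.00, 11.54, 11.09 and 10.82 on the supplemented diet, and 11.80, 12.29, 11.88 and 12.76 on the control diet. Like SLC40A1 it was lowest in boar m_9527 and highest in boar m_9528, but boar m_9597 was above 2 control boars. Its difference was -0.82. LGALSL, a galectin-like protein, had -0.97, also with boar m_9527 lowest and boar m_9528 highest. Among the other iron handling members, the nearest to SLC40A1 was TFRC at a distance of 0.56, but it ranked only 271 of the 2916 probes. The FTH1 probe A_72_P417204 was close to it at 0.57 (rank 291), and the farthest member was HMOX1 at 1.12.

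**Figure D3:**
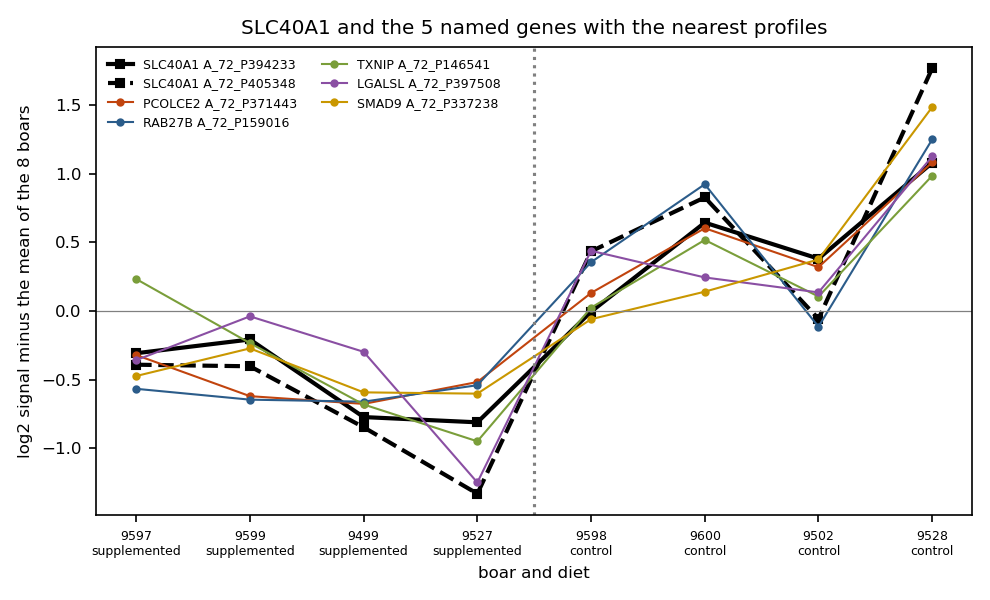
Signal (log2) minus the mean of the 8 boars for both SLC40A1 probes (black) and the probes of the 5 named genes with the nearest profiles (colours), with the supplemented boars left of the dotted line and the control boars right of it; lines join the values of a probe, and the order of boars within a diet has no meaning. Boar m_9528 was highest with each probe shown, and boar m_9527 was lowest with SLC40A1, TXNIP, LGALSL and the SMAD9 probe A_72_P337238. The other SMAD9 probes, A_72_P383658 and A_72_P428914, were lowest in boar m_9499.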

How the data were processed

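The testes of 8 boars were profiled on Agilent porcine arrays with a single dye. Spot intensity came from the scanner files that the authors deposited, made with Agilent Feature Extraction (10.5.1.1 per the file headers). They also deposited log2 values, which differed by at most 0.056 from the values used here. Log2 gMedianSignal, the raw value of the study's methods, was quantile-normalized over non-control spots without background subtraction, and spots of a probe were averaged. Presence of a probe required a signal above 25 and the flag gIsWellAboveBG in 50% or more of its spots, for 2 or more of the 4 boars of a diet. The 36982 present probes were fitted with limma 3.58.1 (lmFit and eBayes, two-sided) in R 4.3.3, with Benjamini-Hochberg adjustment over all of them. The brothers were tested against the others with diet as covariate, and the interaction with both. The code was tested on simulated data.

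Probes were named by RefSeq accession (2628 of 43603 probes, assembly Sscrofa11.1, used for names only) or by the study's list of selected probes, from which names and sequences alone were taken. The members and gene lists were chosen with earlier results of these data known. Named were all member probes, iron genes under an unadjusted P-value of 0.05 between the diets, the brightest gene of each list, and the 5 nearest profiles. Beyond this rule, CD163, SPI1, RLN1, HBE1, ALB, EPCAM, CDH1 and CFTR were picked after their values were seen. Marker lists covered macrophages, red blood cells, Leydig, Sertoli, peritubular, endothelial and duct cells, spermatogonia, spermatocytes, spermatids and liver. Alternatives were other signals, scalings, filters and tests, the litter of brothers as block, the brothers alone, the others alone and each boar left out. A block of all litters was not run, since the litters of the others are not given. The array brightness as covariate, and the interaction under the alternatives, were added after seeing the data. Normexp (offset 50) was run on gMedianSignal. For the figures, matplotlib 3.10.9 was used (Python 3.11.15).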

Additional observations from a re-analysis of the deposited data

Results flagged for a closer look

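Among the 17 probes in the 2 diets, 2 of 34 groups of 4 boars had a boar far from the other 3 relative to the range of the group, where chance gives about 1 in 20, or 1.7. With the FTH1 probe A_72_P213758, the supplemented boar m_9499 had 18.55, and the other 3 supplemented boars lay between 18.42 and 18.43. With the FTH1 probe A_72_P265022, the supplemented boar m_9527 had 17.33, and the other 3 lay between 17.60 and 17.65. Both ranges were narrow on the log2 scale. A_72_P213758 also lay near the top of the signal scale, where normalized values move in steps of rank.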

How the results depend on the processing

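The SLC40A1 differences were negative under all 22 alternatives, from -1.52 to -0.58 for A_72_P394233 and from -1.94 to -1.03 for A_72_P405348, though the choice of the gene fixed this direction. Leaving out a boar gave -1.23 to -0.86 and -1.75 to -1.14. With array weights A_72_P394233 had -0.64. Of the other members, TF and TFRC kept a negative sign under all 22, HMOX1 turned without boar m_9598, and HAMP and SLC11A1 turned under 6 and 3 of them. Of the FTH1 probes, 8 of 10 kept theirs under both scalings to the 75th percentile. No probe was called between the diets, but 1 was with array weights and 3 within the brothers alone, and 0 to 1 when a boar was left out (1 without m_9502). The 689 probes under an unadjusted 0.05 became 5830 with array weights, 2381 within the brothers and 359 within the other boars. Leaving out a boar gave 339 to 6155: 339 without m_9528, 369 without m_9598, 438 without m_9527, 1213 without m_9600 and 6155 without m_9502. Of the 689, 50.4% were higher on the supplemented diet, against 25.5% of 1018 with the background-subtracted signal. The number of iron probes under 0.05, 10 with 1 higher and 9 lower, lay between 7 (2 and 5, the others alone) and 15 (1 and 14, array weights), 11 (3 and 8) without m_9600 and 14 (0 and 14) without m_9502. Between the brothers and the others, where none was called, 2 probes were with the background-subtracted signal, 3 with the scaled gMedianSignal, 2 with array weights and 0 to 9 when a boar was left out. No probe was called for the interaction under any alternative run. The litter of brothers as block, which changed no call, gave 726 under 0.05. The cause of these changes was not tested. Dim probes such as TFRC are limited by their signal over background.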

Other observations

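The dim probe of TFRC limits what its values show, since 1 array of each diet was not well above background. The array weights of limma were lowest for the boars m_9502 (0.316), m_9527 (0.394) and m_9528 (0.478) and highest for boar m_9597 (2.95). Haptoglobin (HP), which binds free haemoglobin, and IL6, which raises hepcidin in the liver, were chosen here after their values were seen. Boar m_9600 had HP signals of 8.99 and 7.19 with the probes A_72_P178006 and A_72_P395143, where the other boars reached at most 7.11 and 5.87. With the IL6 probe A_72_P177826 boar m_9600 had 6.93, and the other boars at most 5.64, but with the second IL6 probe A_72_P414393 it had 6.16, and boar m_9598 had 5.99.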
